A study of Mus musculus with 18 samples.

Results

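The digestive enzymes of the intestinal brush border were followed as 9 genes of a fixed list, each measured in UMIs (unique molecular identifiers, each standing for 1 captured RNA molecule) of single-cell libraries that hold 32286 features. The list is Sis, Alpi, Akp3, Ggt1, Anpep, Dpp4, Enpep, Tmprss15 and Mep1a. The rule names the genes and uses no measured value, and all 9 genes were found in the files. The libraries come from GFP-sorted epithelial cells of ileal crypts of C57Bl6 male mice aged 60 to 65 days, taken 5 days after a single injection of 70 mg/kg tamoxifen. In the Lgr5+ experiment, Lgr5-GFP-CreERT2 mice (Lgr5+WT, 2 libraries) were compared with Lgr5-GFP-CreERT2/Setdb1lox/lox mice (Lgr5+Setdb1KO, 2 libraries), and in the lineage-traced experiment the same genotypes carried the nTnG reporter in addition (2 libraries each). The Lgr5-GFP-CreERT2 knock-in allele, tamoxifen and GFP sorting are shared by all 4 groups, so the WT groups are themselves mice with an altered Lgr5 locus. Cre is active only in cells that express Lgr5, the stem cells of the crypt base, and that allele is known to be silent in a part of the crypts. GFP marks Lgr5-expressing cells in the first experiment and the marked stem cells with all of their progeny in the second.

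The brush border is the lawn of microvilli on the luminal side of enterocytes, the absorptive cells that arise from crypt stem cells and mature while they move up the villus. Its digestive enzymes are anchored in that membrane and cut sugars, peptides and phosphate esters into units that transporters can take up. Their transcripts are known to switch on in steps along this path and are used as signs of enterocyte maturity. SETDB1 is a histone methyltransferase that writes the repressive H3K9me3 mark. The paper names SUV39H1 and SUV39H2 as further writers of this mark, with partly redundant function. The study removed SETDB1 from stem cells to ask what happens to stem cell identity and differentiation.

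The list holds a sugar enzyme, 2 phosphatases, 4 enzymes that take residues from the ends of peptides or glutathione, and 2 endoproteases. Sucrase-isomaltase (Sis) splits sucrose and starch fragments. Its gene lies at chr3:72888557-72967863 on the minus strand (GENCODE M21 on GRCm38, the mm10 build of the files). The intestinal alkaline phosphatases Alpi (chr1:87098002-87101606, minus strand) and Akp3 (chr1:87124973-87127912, plus strand) are neighbours. Gamma-glutamyltransferase 1 (Ggt1, chr10:75561604-75586200) takes glutamyl residues from glutathione. Aminopeptidase N (Anpep, chr7:79821803-79861059) and glutamyl aminopeptidase (Enpep, chr3:129269175-129332720) trim peptides from the N terminus. Dipeptidyl peptidase 4 (Dpp4, chr2:62330073-62412231) removes N-terminal dipeptides and inactivates incretin hormones. Enteropeptidase (Tmprss15, chr16:78953008-79091097) activates trypsinogen and is known as an enzyme of the duodenum. Meprin A subunit alpha (Mep1a, chr17:43474324-43502812) is a metalloprotease. Alpi and Akp3 transcripts share an exact run of at most 68 bases anywhere and of 9 bases in their last 500 bases, where 3′ libraries place most reads, so little sequence there is common to both.

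The promoters of 4 of the genes are shown, chosen after their values were seen. Alpi, Akp3 and Tmprss15 were lower in traced Setdb1-KO cells, as were all other enzymes of the list. Sis was the enzyme called higher in Lgr5+Setdb1KO cells. Each line holds the 250 bases before the start site, 5′ to 3′ on the gene's strand (RefSeq, GRCm38.p6). Capitals mark letters of 4 motifs searched on both strands, namely TTTATNG for the CDX factors, AGATAA for the GATA factors, CAAAGTCCA for HNF4 and GTTAAT for HNF1, the last being a part of its full site, which do not overlap each other in these windows.
Sis, chr3:72967864-72968113, minus strand: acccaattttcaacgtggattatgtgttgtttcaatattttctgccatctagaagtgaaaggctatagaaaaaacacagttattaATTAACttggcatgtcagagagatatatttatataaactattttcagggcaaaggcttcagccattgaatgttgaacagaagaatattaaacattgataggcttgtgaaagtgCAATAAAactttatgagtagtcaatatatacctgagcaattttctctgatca
Alpi, chr1:87101607-87101856, minus strand: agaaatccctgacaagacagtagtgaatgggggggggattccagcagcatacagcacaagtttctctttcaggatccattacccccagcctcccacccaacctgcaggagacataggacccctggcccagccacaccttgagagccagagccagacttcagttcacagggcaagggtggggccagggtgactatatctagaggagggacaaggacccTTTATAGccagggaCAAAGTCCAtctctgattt
Akp3, chr1:87124704-87124953, plus strand: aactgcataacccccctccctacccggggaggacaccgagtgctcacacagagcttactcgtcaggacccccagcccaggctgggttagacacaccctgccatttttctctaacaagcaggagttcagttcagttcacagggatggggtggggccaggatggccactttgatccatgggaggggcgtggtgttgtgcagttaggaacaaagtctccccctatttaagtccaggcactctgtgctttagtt
Tmprss15, chr16:79091098-79091347, minus strand: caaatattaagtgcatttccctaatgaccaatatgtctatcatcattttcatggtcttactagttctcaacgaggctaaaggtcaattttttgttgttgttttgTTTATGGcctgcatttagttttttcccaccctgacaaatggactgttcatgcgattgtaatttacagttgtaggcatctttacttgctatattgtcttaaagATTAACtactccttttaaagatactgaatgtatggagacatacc
The CDX letters occurred 52 to 46 bases before the start of Sis, a gene known to be regulated by the intestinal factor CDX2, 33 to 27 bases before that of Alpi and 146 to 140 bases before that of Tmprss15. Alpi also held the HNF4 letters, and Sis and Tmprss15 each held the HNF1 letters. The Akp3 window held none of the 4 motifs. Of the enzymes not shown, Dpp4 held the CDX and GATA letters, and a window of Ggt1 held the GATA letters. The windows of Anpep, Enpep and Mep1a held none. A match is a description of letters and not a shown binding site. Of all 32851 windows of this length in the table, 9.81% held the CDX letters, 9.99% the GATA letters, 0.384% the HNF4 letters and 6.43% the HNF1 letters.

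After barcodes were kept at 1000 (Lgr5+) or 500 (lineage-traced) to 18000 UMIs and under 5% mitochondrial UMIs, 2894 to 11423 barcodes per library remained, with medians of 4686 to 9336 UMIs in the Lgr5+ experiment and 961 to 2085 UMIs in the lineage-traced experiment. At most 34 barcodes were shared by any pair of libraries. Barcodes were sorted into classes by the share of their UMIs on marker genes, none of which is one of the 9 enzymes. The enterocyte class (10 markers, among them Fabp1, Fabp2, Rbp2, Apoa1, Apoa4, Apoc3, Apob, Prap1 and Krt20, together at 1.5% or more) held 123 and 305 barcodes in Lgr5+WT, 312 and 637 in Lgr5+Setdb1KO, 1121 and 327 in traced WT and 62 and 181 in traced Setdb1-KO. All 10 markers were detected in each library. The deletion removes exon 3 of Setdb1, which 3′ counting does not measure, so the following values check no label. Setdb1 stood at 11.3 and 9.93 CPM, that is UMIs of the gene for 1000000 UMIs of the library or class, in Lgr5+WT against 5.32 and 6.21 CPM in Lgr5+Setdb1KO, and at 6.11 and 4.21 CPM in traced WT against 10.4 and 7.85 CPM in traced Setdb1-KO. The change in Lgr5+ cells passed the test (log2 -0.85 ± 0.14 SE, edgeR adjusted p = 0.047), and that in lineage-traced cells did not (log2 0.24 ± 0.23 SE, edgeR adjusted p = 0.60).

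Within the WT libraries, the question was where along the crypt the enzymes are transcribed. Among the named classes of Lgr5+WT, Sis, Anpep, Alpi, Enpep, Ggt1 and Akp3 stood highest in enterocytes. Sis stood at 563 and 454 CPM in the enterocyte class of the 2 libraries and at 3.60 and 5.44 CPM in the stem class. Anpep stood at 397 and 236 CPM against 10.7 and 6.61 CPM. Alpi stood at 167 and 109.8 CPM against 0.739 and 1.17 CPM, and Enpep at 120.5 and 98.4 CPM against 1.29 and 2.57 CPM. Each of these 4 genes was thus more than an order of magnitude higher in enterocytes in both libraries. Ggt1 followed the same pattern at a lower level, with 54.2 and 42.3 CPM in enterocytes and 0.370 and 0.233 CPM in stem cells.

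Dpp4 and Mep1a did not follow it in Lgr5+WT. Dpp4 stood at 49.5 and 49.4 CPM in Lgr5+WT enterocytes and at 35.7 and 33.0 CPM in stem cells, with 38.2 and 35.4 CPM in dividing cells. Only 4.05% and 8.13% of its UMIs came from the enterocyte class. Mep1a stood at 4.67 and 5.29 CPM in enterocytes and at 4.25 and 3.65 CPM in stem cells. Stem and enterocyte levels of both genes thus lay within 1.5 times of each other in Lgr5+WT. In traced WT the mean levels of enterocytes and stem cells were 221 and 40.8 CPM for Dpp4 and 55.5 and 7.55 CPM for Mep1a. In Lgr5+WT barcodes of no class that were rich in Fabp6, described under the other observations, Mep1a had a mean of 90.5 CPM. Akp3 was low in Lgr5+WT (10 and 20 UMIs in enterocytes, 9.34 and 8.82 CPM). Tmprss15 gave 0 and 1 UMIs in the enterocyte class, where 3 UMIs would stand for 2.80 and 1.32 CPM. For 0 UMIs that is also the upper limit, and such limits and intervals cover counting error only.

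Enteroendocrine cells, the hormone-secreting cells of the epithelium, also held 3 of the enzymes in the Lgr5+ experiment. Sis stood there, in the order library 1 and library 2, at 249.9 and 312 CPM in Lgr5+WT and 265 and 172 CPM in Lgr5+Setdb1KO. Dpp4 stood at 118 and 109 CPM and at 114 and 104 CPM, above its enterocyte level in all 4 libraries. Anpep stood at 67.9 and 98.2 CPM and at 129 and 95.4 CPM. The same barcodes held 0 UMIs of Akp3 and at most 4 UMIs of Alpi in each library. Sis stood between 9.09 and 47.8 CPM in goblet and tuft cells of these 4 libraries, against 27.0 to 105 CPM in droplets of 10 to 100 UMIs, which hold free RNA rather than cells. With the largest share of free RNA that other markers allow taken off, the mean Sis level of goblet cells went from 14.8 to 5.77 CPM in Lgr5+WT and from 34.6 to 19.8 CPM in Lgr5+Setdb1KO. In Paneth cells, the antimicrobial cells of the crypt base, Sis went from at most 12.3 CPM to 0 in all 4 libraries. Anpep kept more there, going from 24.9 and 24.2 to 17.6 and 21.3 CPM in Lgr5+WT and from 46.2 and 19.3 to 42.7 and 18.2 CPM in Lgr5+Setdb1KO, on 15 to 59 UMIs per library.

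**Figure D1:**
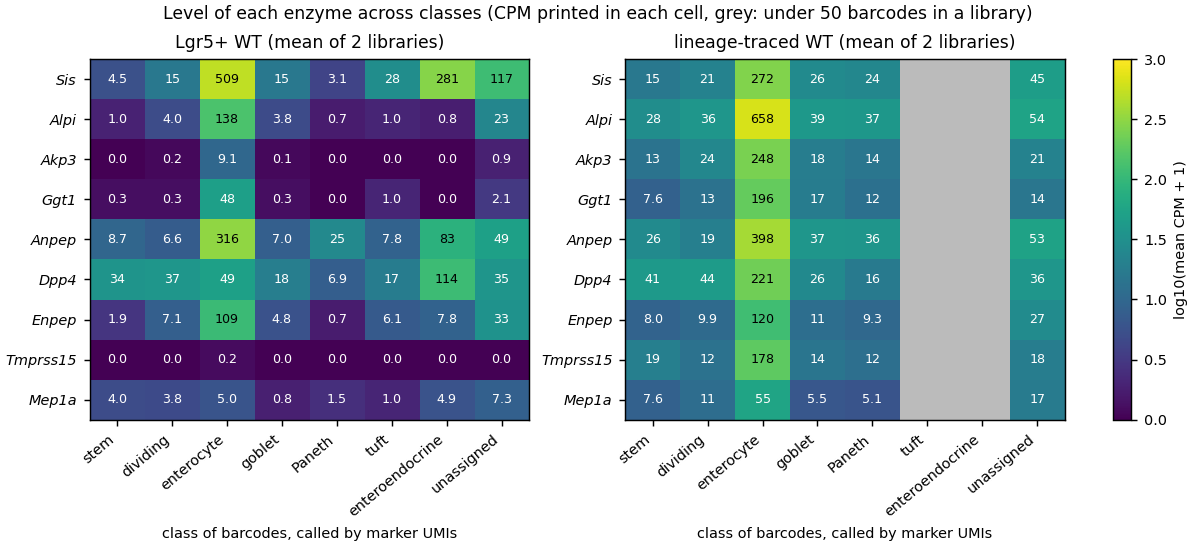
Mean level of each enzyme (rows) in each class of barcodes (columns) in Lgr5+WT and in traced WT, as CPM over 2 libraries. The colour is log10(mean CPM + 1), the mean CPM is printed in each cell, and classes with under 50 barcodes in a library are grey. The enterocyte column is the brightest for most rows, Dpp4 is spread over the classes of Lgr5+WT, and Tmprss15 and Akp3 are highest in the enterocytes of traced WT.

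Over the 4 WT libraries, enterocyte and stem classes were compared with the library as a block. The percentages given beside counts in all comparisons are those of all genes tested that were called by the same rule (edgeR adjusted p under 0.05). All 8 enzymes that passed the filter on low counts were called higher in enterocytes, against 25.6% of the 7692 genes tested, and Mep1a did not pass it. Of the 8, all but Tmprss15 reached the level of the filter in the enterocyte class of all 4 libraries, while Sis, Ggt1 and Enpep reached it in the stem class of 1 library and Alpi and Akp3 in that of 2. Most thus passed through the class where they are high, and the count is a description. Stem-class Akp3 and Tmprss15 UMIs came from traced WT alone. The log2 differences were 6.16 ± 0.38 SE for Ggt1, 6.09 ± 0.51 for Sis, 5.99 ± 0.44 for Alpi, 5.56 ± 0.34 for Enpep, 5.27 ± 0.44 for Akp3, 4.88 ± 0.27 for Anpep, and 3.54 ± 0.30 for Tmprss15. Dpp4 had the smallest of the 8 differences (2.84-fold, log2 SE 0.32). The median of the 8 was 5.41, beside -0.05 over all genes tested. Without the library block 6 of them were called.

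Traced WT enterocytes carried the same enzymes in another order. In Lgr5+WT the mean enterocyte levels ran from Sis (509 ± 77.2 CPM, SD, n = 2) over Anpep (316 ± 114), Alpi (138 ± 40.5) and Enpep (109 ± 15.6) to Dpp4 (49.4 ± 0.0636) and Ggt1 (48.3 ± 8.36). In traced WT they ran from Alpi (658 ± 144 CPM) over Anpep (398 ± 4.43), Sis (272 ± 84.0), Akp3 (248 ± 40.9), Dpp4 (221 ± 11.5), Ggt1 (196 ± 42.8), Tmprss15 (178 ± 71.1) and Enpep (120 ± 43.5) to Mep1a (55.5 ± 12.3). Each UMI is 1 molecule, so these levels are compared between genes without division by length. In Lgr5+WT the ranges of the libraries of Sis and Anpep do not overlap, nor do those of Anpep and Alpi, while those of Alpi and Enpep, and of Dpp4 and Ggt1, do. In traced WT, Alpi and Anpep stand apart from the rest, and the ranges of the 5 genes from Sis to Tmprss15 overlap.

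The ratio of the mean level in traced WT to that in Lgr5+WT was 1.26 for Anpep and 1.09 for Enpep, and 0.535 for Sis. Ggt1, Dpp4 and Alpi were higher in traced WT by ratios of 4.06, 4.47 and 4.75. Mep1a was higher by 11.1 and Akp3 by 27.3. For Tmprss15, 1 UMI in both Lgr5+WT libraries together stood against 477 UMIs in traced WT. The experiments were sorted for different GFP signals, sequenced to different depths and run as separate libraries, which cannot be told apart, so the ratios are given without a test. Ada, a villus tip gene that is no marker of the class, was also higher in traced WT. In barcodes with 6% or more of their UMIs on enterocyte markers, Ada stood at 0 and 0 CPM in Lgr5+WT and at 885 and 911 CPM in traced WT.

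Levels also changed within the enterocyte class, which was split by marker share into bins of 1.5 to 3%, 3 to 6% and 6% or more. In Lgr5+WT library 2 (183, 94 and 28 barcodes), Ggt1 stood at 8.78, 47.4 and 249.7 CPM in these bins. In library 1 (86, 22 and 15 barcodes), it stood at 12.3, 30.4 and 304 CPM. Sis was also higher from bin to bin, from 444 over 754 to 912 CPM in library 1 and from 348 over 507 to 979 CPM in library 2. Akp3 stood at 2.73 and 2.93 CPM in the lowest bin and at 42.4 and 34.3 CPM in the highest, on 6 and 7 UMIs, while Tmprss15 gave a single UMI. Ggt1, Sis and Akp3 thus had their highest level in the highest bin of both libraries, that of library 1 resting on 15 barcodes. Mep1a, on 1 to 6 UMIs per bin, stood at 2.73, 10.1 and 7.07 CPM in library 1 and at 4.39, 5.74 and 9.79 CPM in library 2. In traced WT, Ggt1 was highest in the middle bin (359 and 262 CPM) and stood at 186 and 176 CPM in the highest, while Akp3 was highest in the highest bin (467 and 419 CPM). The share that defines the bins holds none of the 9 enzymes, and the values are a description without a test.

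**Figure D2:**
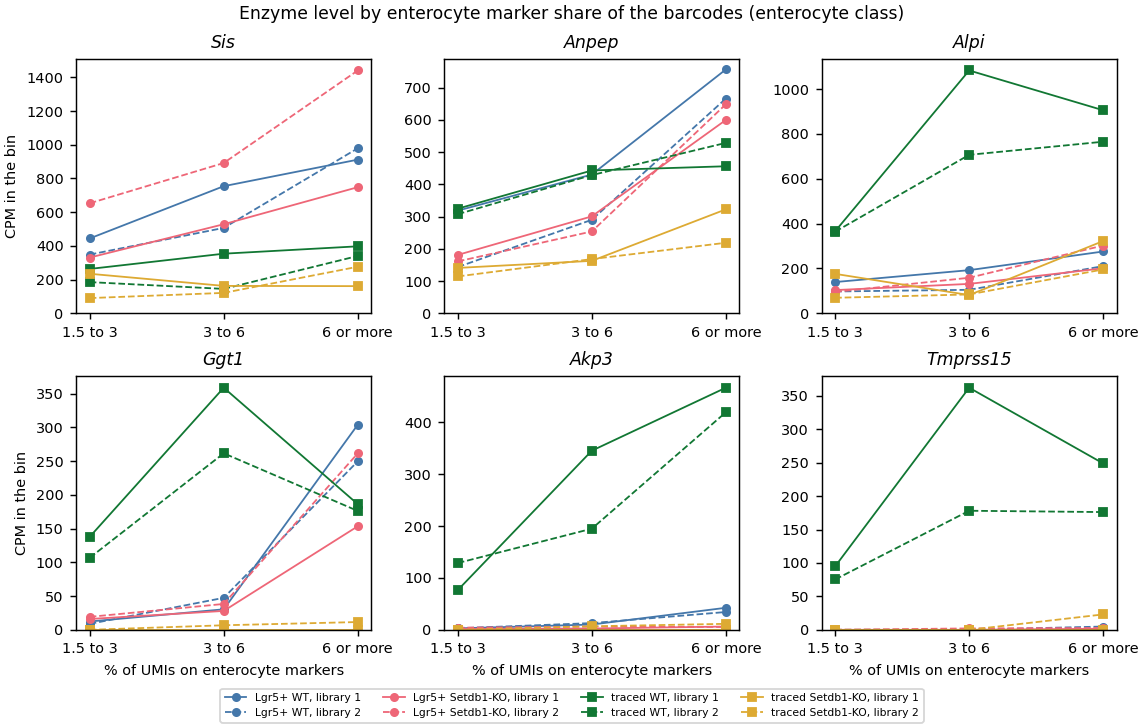
Level of 6 enzymes (CPM) in enterocyte-class barcodes grouped by the percentage of their UMIs on enterocyte markers, 1 line per library, on linear axes from 0. Ggt1 climbs in the highest bin of all 4 Lgr5+ libraries, Akp3 and Tmprss15 pass 100 CPM in traced WT alone, and all 3 stay at 23 CPM or less in traced Setdb1-KO, whose library 1 has 42, 12 and 8 barcodes in the bins.

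In the Lgr5+ experiment, the first question was whether the loss of Setdb1 changed the enzymes over all kept barcodes. Sis stood at 53.5 and 48.8 CPM in Lgr5+WT and at 100.4 and 109.2 CPM in Lgr5+Setdb1KO. The groups did not overlap, and Sis rose 2.07-fold (log2 1.05 ± 0.10 SE, edgeR adjusted p = 0.0085). It was the 1 enzyme called of the 8 tested, beside 1.34% of all genes tested and 0.812% called higher. The median of the 8 was a log2 change of 0.64, beside -0.01 over all genes. The methods describe the libraries of a group as biological replicates, and the p-values measure the spread between them.

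Other enzymes had positive changes that did not pass the test. Ggt1 stood at 2.26 and 2.70 CPM in Lgr5+WT and at 6.30 and 3.55 CPM in Lgr5+Setdb1KO (log2 0.95 ± 0.27 SE, edgeR adjusted p = 0.14). Alpi stood at 11.3 and 10.7 against 20.8 and 13.6 CPM (log2 0.63 ± 0.16 SE, edgeR adjusted p = 0.12). Anpep stood at 28.5 and 25.3 against 57.8 and 27.9 CPM (log2 0.65 ± 0.26 SE, edgeR adjusted p = 0.27). In all 3 genes library 1 of Lgr5+Setdb1KO was the highest of the 4 libraries. Without Lgr5+Setdb1KO library 2, 4 enzymes were called higher (Sis, Alpi, Anpep and Ggt1). Mep1a stood at 4.39 and 3.38 against 6.59 and 5.93 CPM and Enpep at 12.1 and 14.2 against 21.8 and 16.1 CPM (edgeR adjusted p = 0.083 and 0.15). Dpp4 was level, at 34.0 and 33.2 against 33.2 and 29.5 CPM. Akp3 gave 12 to 29 UMIs per library and Tmprss15 at most 4.

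In such sums, fewer cells of a type and less RNA per cell cannot be told apart, and the share of enterocyte-class barcodes differed between these libraries. It was 2.58% and 4.97% in Lgr5+WT and 10.8% and 5.58% in Lgr5+Setdb1KO, highest in the library with the highest Ggt1, Alpi and Anpep. Its part in the changes was not tested. Between 72 and 232 barcodes per library lay just below the class limit, at 1.125 to 1.5% of UMIs on its markers, and 48 to 205 just above, at 1.5 to 2%.

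**Figure D3:**
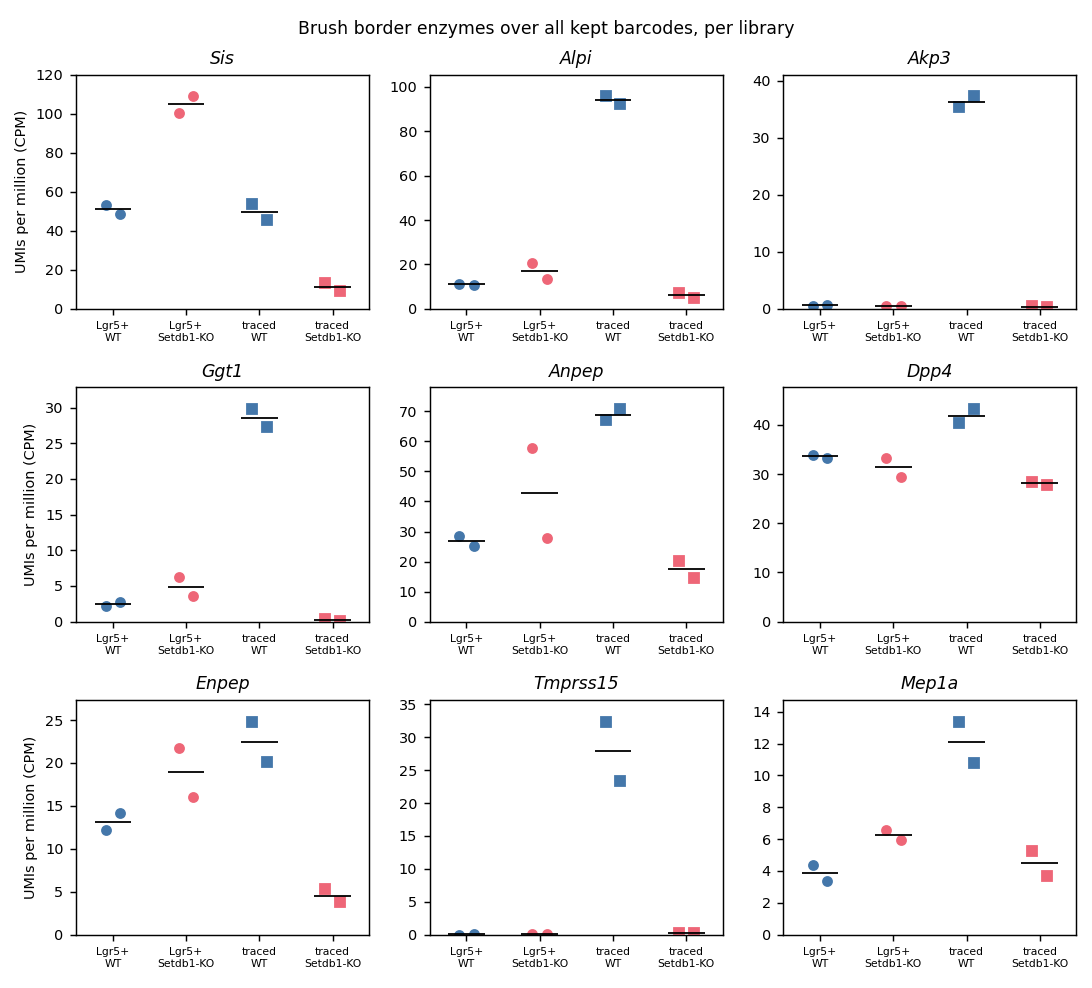
Level of the 9 enzymes over all kept barcodes (CPM, linear axis from 0, a scale of its own in each panel), 1 point per library and a line at the mean of each group of 2. Sis is higher in both Lgr5+Setdb1KO libraries than in Lgr5+WT, and every enzyme is lower in both traced Setdb1-KO libraries than in traced WT.

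Mature enterocytes of the Lgr5+ experiment are described by the study as cells without GFP that came through the sort, so they need not carry the deletion. Immature enterocytes are counted by the study among the cells with GFP RNA, and the enterocyte class here may hold both kinds. Setdb1 stood at 2.80 and 3.97 CPM in the enterocyte class of Lgr5+WT and at 2.57 and 4.47 CPM in that of Lgr5+Setdb1KO, on 3 to 16 UMIs per library, where the groups overlapped. In the stem class it stood at 13.9 and 12.4 against 4.45 and 8.60 CPM (log2 -0.89 ± 0.24 SE, edgeR adjusted p = 0.13). GFP itself gave 0 UMIs in the enterocyte class of all 8 libraries and at most 13 in the stem class, too few to tell marked from unmarked cells. The values of Lgr5+Setdb1KO enterocytes are therefore those of the class in that sort, whose deletion was not measured. Within this class, 0 of 8 enzymes were called by edgeR, beside 0.484% of all genes tested. At an unadjusted p under 0.05 there were 2 (Akp3 and Mep1a), beside 854 of all 8478 genes tested. DESeq2 called 0 of the enzymes, beside 36 of all genes. Sis stood at 563 and 454 CPM in Lgr5+WT and at 477 and 798 CPM in Lgr5+Setdb1KO, where the groups overlapped (log2 0.31 ± 0.21 SE, edgeR adjusted p = 0.69). Mep1a stood at 4.67 and 5.29 against 14.3 and 11.2 CPM, higher in both Setdb1-KO libraries (log2 1.27 ± 0.36 SE, edgeR adjusted p = 0.22), on 5 and 12 UMIs in Lgr5+WT. Akp3 stood at 9.34 and 8.82 against 2.85 and 4.75 CPM, lower in both (log2 -1.27 ± 0.40 SE, edgeR adjusted p = 0.29), on 10 to 20 UMIs per library. Alpi, Ggt1, Anpep, Dpp4 and Enpep had log2 changes between -0.25 and 0.08, all with overlapping groups but Dpp4, whose 4 libraries stood between 49.4 and 55.6 CPM. Single libraries decided 2 calls here. Without Lgr5+Setdb1KO library 1, Sis was called higher (log2 0.66, edgeR adjusted p = 0.0087), and without Lgr5+WT library 2, Anpep was called lower (log2 -0.59, edgeR adjusted p = 0.0033).

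In the stem class of the same experiment, Sis stood at 3.60 and 5.44 CPM in Lgr5+WT and at 5.31 and 14.9 CPM in Lgr5+Setdb1KO (log2 1.26 ± 0.39 SE, edgeR adjusted p = 0.19), with library 2 of Lgr5+Setdb1KO alone above the rest. Of 6 enzymes tested, edgeR called 0, beside 1.04% of all genes. At an unadjusted p under 0.05 there were 3 (Anpep, Mep1a and Sis), beside 1598 of all 11491 genes tested. DESeq2 called 0 of the enzymes, beside 87 of all genes. Sis was called without Lgr5+Setdb1KO library 1 (log2 1.75) and without Lgr5+WT library 2, and Anpep without Lgr5+Setdb1KO library 2 (log2 1.15). The droplets with 10 to 100 UMIs had Sis at 41.6 and 27.0 CPM in Lgr5+WT and at 72.2 and 105 CPM in Lgr5+Setdb1KO, above the stem-class level in each library. The part of free RNA in these stem-class values was not tested. Dpp4 stood at 35.7 and 33.0 against 27.5 and 29.4 CPM, and Akp3 and Tmprss15 gave 0 UMIs in all 4 libraries, where 3 UMIs would be 0.233 to 0.430 CPM.

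In the lineage-traced experiment, all kept barcodes held less of every enzyme after the loss of Setdb1. Tmprss15 gave 620 and 189 UMIs in traced WT (32.4 and 23.4 CPM) and 2 and 5 UMIs in traced Setdb1-KO (0.222 and 0.187 CPM). Ggt1 stood at 29.8 and 27.2 CPM against 0.445 and 0.112 CPM, and Akp3 at 35.3 and 37.4 against 0.445 and 0.262 CPM. In traced Setdb1-KO each of these 3 genes gave at most 7 UMIs per library, and their log2 changes were -7.56 ± 0.36 SE, -7.56 ± 0.38 SE and -7.30 ± 0.34 SE. They passed the filter on low counts through the traced WT libraries alone. Alpi stood at 96.0 and 92.2 CPM against 7.23 and 4.86 CPM (log2 -4.53 ± 0.28 SE, edgeR adjusted p = 6.9e-07). All 9 enzymes were called lower, beside 8.73% of all genes tested and 7.19% called lower, with a median log2 change of -2.88 beside 0.01 over all genes.

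The remaining enzymes had smaller changes. Sis stood at 53.9 and 45.5 CPM in traced WT and at 13.2 and 9.13 CPM in traced Setdb1-KO (log2 -2.71 ± 0.24 SE, edgeR adjusted p = 1.2e-05). Anpep stood at 67.0 and 70.9 against 20.2 and 14.7 CPM (log2 -2.54 ± 0.25 SE), and Enpep at 24.8 and 20.2 against 5.34 and 3.74 CPM (log2 -2.88 ± 0.24 SE). Groups did not overlap for any of them. Mep1a stood at 13.4 and 10.8 against 5.22 and 3.70 CPM (log2 -2.01 ± 0.23 SE, edgeR adjusted p = 0.0001). Dpp4 changed least, from 40.5 and 43.3 CPM to 28.3 and 27.9 CPM (log2 -1.10 ± 0.23 SE, edgeR adjusted p = 0.0098). The call of Dpp4 depended on the scaling. Without the TMM factors the median of all genes lay at 0.54 on the log2 scale. On library totals alone its log2 change was -0.57 and was not called (edgeR adjusted p = 0.089), while the other 8 enzymes were called lower. Without traced WT library 2 Dpp4 also missed the threshold (edgeR adjusted p = 0.11).

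The make-up of the kept barcodes moved with these sums. Enterocyte-class barcodes were 14.3% and 8.42% of traced WT and 1.29% and 1.77% of traced Setdb1-KO. Paneth-class barcodes were 25.2% and 61.4% against 7.83% and 4.15%, and barcodes in no class 30.3% and 14.7% against 52.6% and 56.9%. The Paneth markers, all 9 in the file, summed to 234606 and 218693 CPM over all barcodes of traced WT and to 54386 and 37780 CPM in traced Setdb1-KO. Of the Alpi UMIs of traced WT, 71.0% and 49.5% lay in the enterocyte class. The part of cell numbers in the all-barcode changes was not tested as such, and the enterocyte class was compared by itself.

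Within the enterocyte class of the lineage-traced experiment, 8 of 9 enzymes were called lower in Setdb1-KO, beside 23% of all genes called and 14.6% called lower. Akp3, Ggt1, Tmprss15 and Mep1a passed the filter on low counts through the traced WT libraries, with no more than 1 Setdb1-KO library at its level, so the count is a description. The median log2 change of the 9 enzymes was -2.77, beside -0.03 over all genes. Depth was uneven, since the class held 1713838 and 662993 UMIs in traced WT and 116163 and 716677 UMIs in traced Setdb1-KO, where library 1 had 62 barcodes. A count of 3 UMIs stands for 25.8 CPM in that library and 4.19 CPM in library 2.

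The largest differences were again those of Tmprss15, Akp3 and Ggt1. Tmprss15 gave 392 and 85 UMIs in traced WT (229 and 128 CPM) and 0 and 2 UMIs in traced Setdb1-KO. Akp3 gave 474 and 145 UMIs (277 and 219 CPM) against 0 and 3, and Ggt1 388 and 110 UMIs (226 and 166 CPM) against 0 and 3. All of these Setdb1-KO values lie at or under 3 UMIs. The pooled ratio of WT to Setdb1-KO was 83.6 for Tmprss15 (95% exact interval 23.0 to 692), 72.3 for Akp3 (24.6 to 352) and 58.2 for Ggt1 (19.8 to 283), each interval covering counting error only. The fitted log2 changes were -5.99 ± 0.67 SE, -5.90 ± 0.64 SE and -5.57 ± 0.63 SE. All 3 genes were called under each alternative tried, but they reached the filter through traced WT alone, so these calls are a description. Over the alternatives the log2 change ranged from -10.26 to -2.76 for Tmprss15, from -10.71 to -5.60 for Akp3 and from -10.38 to -5.02 for Ggt1.

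Alpi stood at 760.3 and 557 CPM in traced WT enterocytes and at 189 and 90.7 CPM in traced Setdb1-KO (log2 -2.34 ± 0.43 SE, edgeR adjusted p = 1.7e-06). Dpp4 stood at 213 and 229 against 34.4 and 27.9 CPM (log2 -2.77 ± 0.46 SE, edgeR adjusted p = 8.2e-08). The groups stood clear of each other in both genes. With enterocyte markers free of fat-handling genes, on 1 and 10 barcodes in traced Setdb1-KO, Dpp4 had a log2 change of -1.39 and was not called (edgeR adjusted p = 0.30). The log2 change of Dpp4 here stood beside -1.10 over all barcodes, and that difference was not tested. Mep1a stood at 64.2 and 46.8 CPM against 17.2 and 2.79 CPM, the latter on 2 UMIs each (log2 -3.32 ± 0.60 SE, edgeR adjusted p = 1.6e-06), and missed the threshold without traced Setdb1-KO library 2.

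Anpep, Enpep and Sis had the smallest changes in enterocytes. Anpep stood at 401 and 395 CPM against 172 and 149 CPM (log2 -1.26 ± 0.40 SE, edgeR adjusted p = 0.014), and Enpep at 151 and 89.0 against 60.3 and 41.9 CPM (log2 -1.27 ± 0.40 SE, edgeR adjusted p = 0.012). Neither was called without traced WT library 1 or without traced WT library 2, and Enpep was also not called without traced Setdb1-KO library 2. With no filter on low counts neither was called (edgeR adjusted p = 0.079 for Anpep and 0.065 for Enpep), and DESeq2 did not call Enpep (adjusted p = 0.12). Sis stood at 331 and 213 CPM against 215 and 126 CPM, where the groups overlapped, and was not called (log2 -0.73 ± 0.40 SE, edgeR adjusted p = 0.17). Without traced Setdb1-KO library 1 it was called lower (log2 -0.86, edgeR adjusted p = 0.039). The order of mean levels in traced Setdb1-KO enterocytes, Sis 170.4 ± 63.4 CPM (SD, n = 2), Anpep 161 ± 16.2, Alpi 140.04 ± 69.8, Enpep 51.1 ± 13.0 and Dpp4 31.2 ± 4.62, began with the same 5 genes as in Lgr5+WT and Lgr5+Setdb1KO enterocytes, though the first 3 overlapped here.

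**Figure D4:**
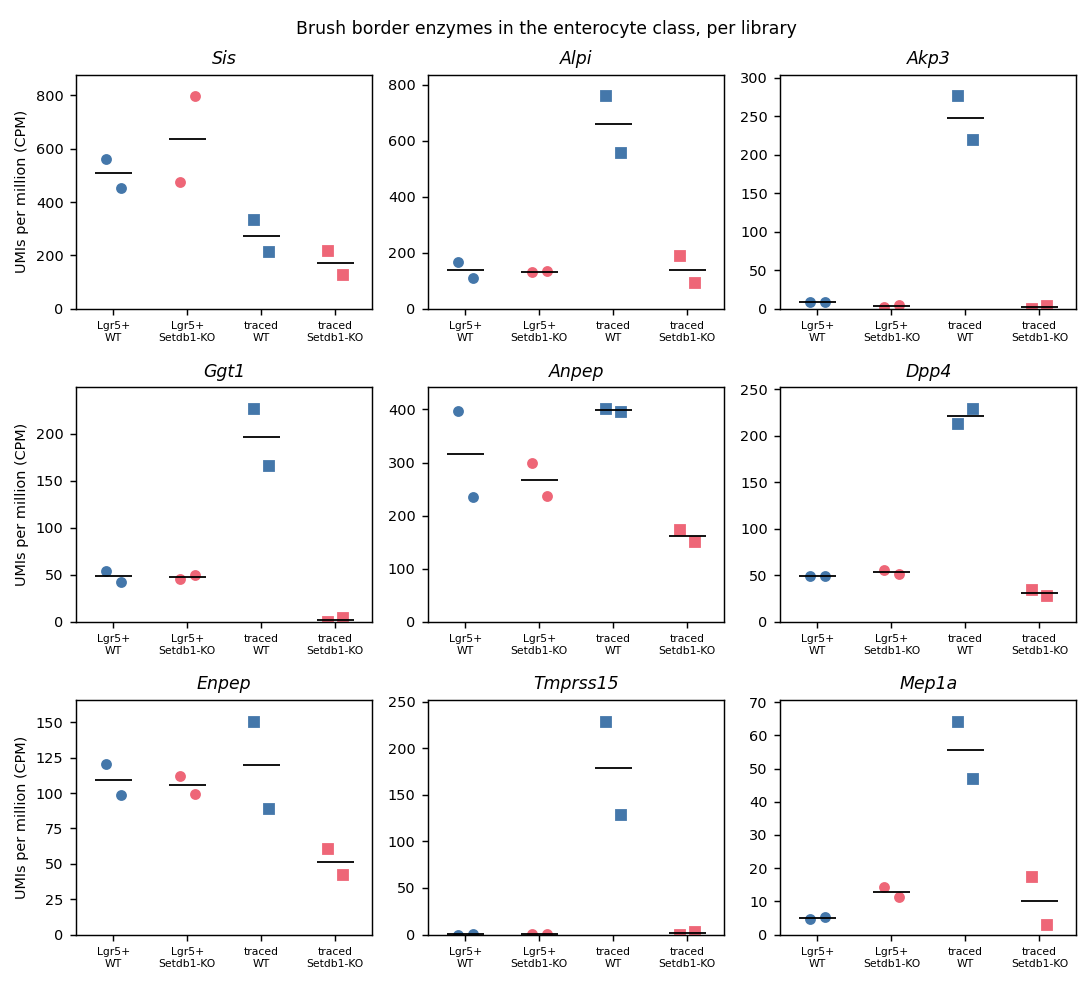
Level of the 9 enzymes in the enterocyte class (CPM, linear axis from 0, a scale of its own in each panel), 1 point per library and a line at the mean of each group of 2. Traced WT stands above traced Setdb1-KO for all enzymes but Sis, whose groups overlap, and the 2 Lgr5+ groups overlap for most enzymes.

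**Figure D5:**
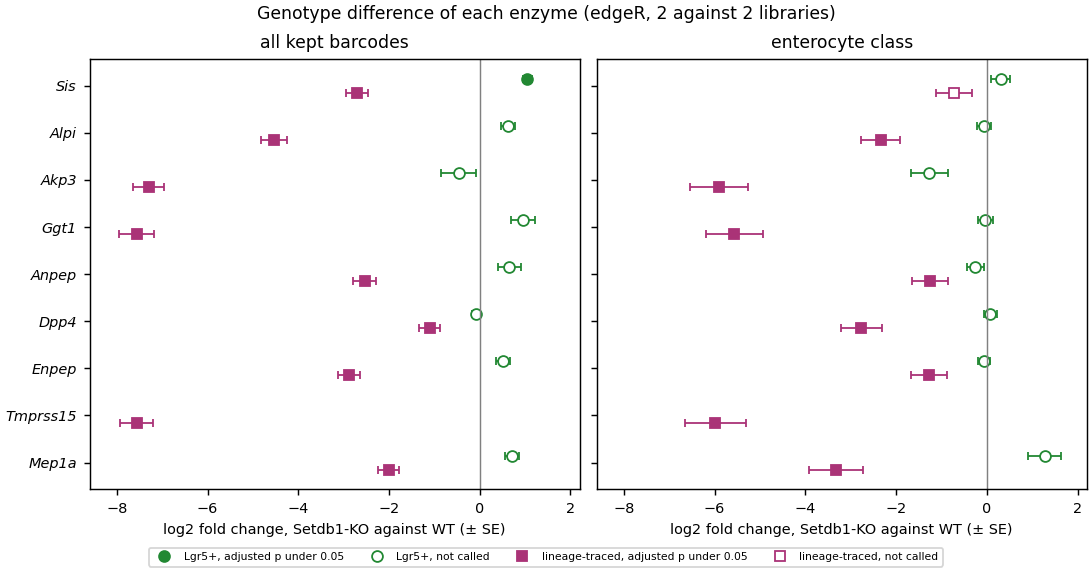
Log2 change between Setdb1-KO and WT of each enzyme in the Lgr5+ and the lineage-traced experiment, over all kept barcodes (left) and in the enterocyte class (right). Bars are 1 SE, computed from the log2 change and the F value of edgeR, and points are filled where the edgeR adjusted p was under 0.05. Sis is above 0 over all barcodes of the Lgr5+ experiment, and Tmprss15, Ggt1 and Akp3 have the lowest values of the lineage-traced experiment.

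Paneth-cell RNA stood beside these values. In the enterocyte class, Paneth markers summed to 58965 and 79526 CPM in traced WT and to 10210 and 12982 CPM in traced Setdb1-KO, while enterocyte markers summed to 50583 and 46004 CPM against 32437 and 37063 CPM. From the markers of other classes, at most 23.9% and 29.2% of the UMIs of the class could be free RNA in traced WT and 9.30% and 7.84% in traced Setdb1-KO. Empty droplets of traced WT held 18.1 and 11.6 CPM of Tmprss15, 13.3 and 9.00 CPM of Akp3 and 82.0 and 78.7 CPM of Alpi. Those of traced Setdb1-KO held 14.2 and 0 CPM of Tmprss15, 11.8 and 22.2 CPM of Akp3 and 30.8 and 22.2 CPM of Alpi, on at most 13 UMIs each. With that share of free RNA taken off, Tmprss15 stood at 224 and 125 CPM in traced WT enterocytes, Akp3 at 273 and 216 CPM and Alpi at 741 and 534 CPM.

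Per barcode, thinned to 500 UMIs each with none left out for depth, Tmprss15 was found in 128 of 1121 traced WT enterocytes of library 1 (11.4%, exact 95% interval 9.62 to 13.4%) and in 24 of 327 of library 2 (7.34%, 4.76 to 10.7%). Before thinning the shares were 20.6% and 15.9%. Paneth-class barcodes, which should lack the gene, had it in 1.62% and 0.797% after thinning, with median depths of 1642 and 884 UMIs against 1167 and 1393 UMIs in enterocytes. In traced Setdb1-KO enterocytes it was found after thinning in 0 of 62 and 0 of 181 barcodes, which allows shares of barcodes with a UMI at that depth of up to 5.78% and 2.02%. Before thinning it was found in 0 of 62 and 2 of 181 barcodes. Unthinned, 3 or more of the 9 enzymes were found together in 41.0% and 40.1% of traced WT enterocytes and in 8.06% and 14.9% of those of traced Setdb1-KO, at median depths of 903 and 3389 UMIs in the latter.

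In the stem class of the lineage-traced experiment, 3 of 6 enzymes tested were called lower, beside 0.959% of all genes called and 0.805% called lower. All 3 (Alpi, Akp3 and Tmprss15) passed the filter on low counts through the traced WT libraries alone, so their count is a description and supports nothing about the list. Alpi stood at 28.5 and 28.2 CPM in traced WT and at 4.56 and 1.46 CPM in traced Setdb1-KO (log2 -3.40 ± 0.48 SE, edgeR adjusted p = 7.2e-05). Tmprss15 gave 23 and 6 UMIs in traced WT and 0 in both Setdb1-KO libraries, at least 26.8-fold lower against a floor of 3 UMIs over the group. Akp3 gave 12 and 5 UMIs against 0, at least 15.7-fold lower. Akp3 and Tmprss15 in the traced WT stem class stood at 9.78 and 15.7 CPM and at 18.8 and 18.8 CPM, near the empty-droplet values above, and Alpi stood below its own. With the free RNA that other markers allow taken off, Akp3 stood at 7.04 and 13.7 CPM, Tmprss15 at 15.0 and 16.3 CPM and Alpi at 11.6 and 11.2 CPM in traced WT, and Alpi at 0 in both traced Setdb1-KO libraries. Up to 20.7% and 21.6% of stem-class UMIs in traced WT could be free RNA, against 16.8% and 12.0% in traced Setdb1-KO. The 3 calls were not tested again on such values. Without traced WT library 1, Akp3 and Tmprss15 no longer passed the filter and were not tested, and Alpi had a log2 change of -3.33 that was not called (edgeR adjusted p = 0.13). Sis stood at 23.6 and 6.27 CPM against 11.1 and 2.91 CPM (log2 -1.63 ± 0.52 SE, edgeR adjusted p = 0.26), and was called lower without traced Setdb1-KO library 1 (log2 -2.62) and without traced WT library 2 (log2 -1.94). Dpp4 stood at 44.0 and 37.6 against 39.8 and 31.7 CPM, where the groups overlapped (log2 -0.26 ± 0.31 SE, edgeR adjusted p = 0.97).

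Whether the change between Setdb1-KO and WT differed between the 2 experiments was tested with an interaction term. The experiments also differ in sort, depth and cell make-up, and the deletion was not measured in Lgr5+ enterocytes. The cause of a differing change was not tested. Over all barcodes the change of 9 of 9 enzymes was lower in the lineage-traced than in the Lgr5+ experiment, beside 6.07% of all genes called lower. Tmprss15 entered this count through traced WT alone, since 1 UMI in Lgr5+WT and 5 in Lgr5+Setdb1KO leave its Lgr5+ change unmeasured, and it was not called without Lgr5+Setdb1KO library 2 (edgeR adjusted p = 0.082). Dpp4 (log2 -0.99) was called neither on library totals without TMM nor after any 1 of the 4 Lgr5+ libraries or traced WT library 2 was left out (edgeR adjusted p = 0.051 to 0.093). The other 7 enzymes were called under each alternative tried. In the enterocyte class the change was lower for 7 of 9, beside 6.42% of all genes, and for 5 to 7 without 1 library. Akp3 reached the filter in the WT groups alone. Mep1a reached it in both libraries of Lgr5+Setdb1KO and of traced WT but of no other group, so the count is a description. The call of Enpep held in 7 of 17 alternatives. It was lost with DESeq2 (adjusted p = 0.100), no filter, the replicate block and enterocyte markers free of fat-handling genes, and without any library but traced Setdb1-KO library 1 and traced WT library 2 (edgeR adjusted p = 0.076 to 0.27). That of Tmprss15 held in 13 of 17, and was lost at the 10% mitochondrial limit, with the other markers, without Lgr5+Setdb1KO library 2 and without traced Setdb1-KO library 2. Tmprss15, on 1 and 4 UMIs in the Lgr5+ groups, again passed the filter through traced WT alone. Sis (log2 -1.15 ± 0.43 SE, edgeR adjusted p = 0.098) and Anpep (log2 -1.07 ± 0.39 SE, edgeR adjusted p = 0.089) were the 2 not called there. On library totals without TMM all 9 were called lower, Sis and Anpep among them.

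Other hydrolases of the brush border moved with the 9 enzymes in the lineage-traced experiment. Of 17 listed, 15 were tested over all barcodes and 15 were called lower, beside 7.19% of all genes, with a median log2 change of -3.56. In enterocytes 14 of 14 were called lower, beside 14.6% of all genes, with a median of -3.01 beside -0.03 over all genes. Of these genes, 4 over all barcodes and 6 in enterocytes lay under the level of the filter on low counts in both traced Setdb1-KO libraries and were tested through traced WT alone, so the counts and medians of this list are descriptions. Lactase (Lct) stood at 128 and 95.02 CPM in traced WT enterocytes and at 0 and 11.2 CPM in traced Setdb1-KO (log2 -3.40 ± 0.51 SE). Trehalase (Treh) stood at 108 and 84.5 against 0 and 5.58 CPM (log2 -4.15 ± 0.59 SE). Maltase-glucoamylase (Mgam), the highest of this list over all barcodes, stood at 399 and 273 against 43.0 and 46.0 CPM (log2 -2.76 ± 0.45 SE). Both Setdb1-KO libraries lay below both WT libraries in these 3 genes. Enpp7, the alkaline sphingomyelinase, stood at 27.4 and 15.1 CPM in traced WT enterocytes and gave 0 UMIs in both traced Setdb1-KO libraries, at least 6.66-fold lower against a floor of 3 UMIs over the group. With Enpp7 at that bound the median of the 14 was -2.87. Plb1 gave 61 UMIs against 1 (pooled ratio of WT to Setdb1-KO 21.4, 95% exact interval 3.69 to 858) and Xpnpep2 gave 77 against 3 (8.99, 2.96 to 44.6). Among the others, the log2 changes in enterocytes were -4.89 for Enpp3, -3.06 for Naaladl1, -2.77 for Asah2, -2.28 for Dpep1, -2.24 for Mep1b, -1.90 for Mme and -1.82 for Ace. In the Lgr5+ experiment 1 of 13 was called over all barcodes, beside 1.34% of all genes. This was the dipeptidase gene Dpep1, at 5.12 and 4.94 against 19.7 and 11.3 CPM (log2 1.60 ± 0.22 SE, edgeR adjusted p = 0.030). In Lgr5+ enterocytes 0 of 11 were called by edgeR, beside 0.484% of all genes.

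Structural genes of the microvilli and transporters followed in part. Of 12 structural genes, 9 were called lower over all barcodes of the lineage-traced experiment (beside 7.19% of all genes) and 10 in its enterocytes (beside 14.6%), with a median log2 change of -1.94 in the latter, Pdzk1 being tested through traced WT alone in both. The scaffold gene Pdzk1 gave 124 UMIs in traced WT enterocytes and 1 in traced Setdb1-KO (pooled ratio 43.4, 95% exact interval 7.66 to 1730), and ezrin (Ezr) and villin (Vil1) had log2 changes of -1.79 and -1.53. Of 10 transporters of sugars, peptides, amino acids and phosphate, 9 were called lower over all barcodes and 8 in enterocytes, beside the same 7.19% and 14.6%. Slc2a2 over all barcodes and 5 of the 10 in enterocytes were tested through traced WT alone, so these counts too are descriptions. In enterocytes Slc2a2, the basolateral glucose transporter, gave 218 UMIs against 2 (pooled ratio 38.2, 10.4 to 317), and Slc5a1, the sodium-glucose cotransporter, had a log2 change of -2.15 ± 0.42 SE. In the Lgr5+ experiment 2 of 10 transporters were called higher over all barcodes, beside 0.812% of all genes, the fructose transporter gene Slc2a5 (log2 1.06) and Slc6a20a (log2 0.69), and 0 of 12 structural genes. Of 8 transcription factors of enterocytes, 0 were called by edgeR over all barcodes of either experiment. Beside this stood 1.34% of all genes in the Lgr5+ and 8.73% in the lineage-traced experiment, so for 8 genes a count of 0 lies near these shares. In lineage-traced enterocytes 1 of 5 tested was called lower, beside 14.6% of all genes, Hnf4a (log2 -1.10 ± 0.40 SE, edgeR adjusted p = 0.032). The median log2 change of the 5 was 0.0034, and the count is a description. Hnf4g was not called, at 103 and 113 CPM in traced WT enterocytes and 250 and 135 CPM in traced Setdb1-KO. Nor were Cdx1 and Cdx2, the highest of this list over all barcodes by the mean of all libraries.

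Likeness of pattern was described by Pearson's r of log2(CPM + 1) over 58 sums of a class in a library, searched over 10864 genes. These sums share libraries, depth and free RNA, so r is a description. Among the 9 enzymes, Akp3 was most like Ggt1 (r = 0.912) and Tmprss15 (r = 0.909), and Sis and Tmprss15 were least alike (r = 0.185). The closest other genes were Cyp2c29 for Tmprss15 (r = 0.973), Slc26a6 for Enpep (r = 0.949), 2010106E10Rik and Apoa4 for Alpi (both r = 0.943), Cyp3a11 for Akp3 (r = 0.930), Sult6b2 for Ggt1 (r = 0.921), Cyp2d26 for Sis (r = 0.895), Dpyd for Dpp4 (r = 0.890), Slc13a1 for Anpep (r = 0.883) and Naaladl1 for Mep1a (r = 0.810). Mep1a thus had the least close neighbour of the 9.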

How the data were processed

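Single-cell 3′ libraries (8, 2 per group) were used. The deposited files hold unfiltered UMI counts per gene and barcode, which the authors made with Cell Ranger against mm10 with GFP added as a feature. The processing notes name Cell Ranger 6.1.1 and Seurat 5.0.3. The other samples of the series were not used here. No deposited annotation of cells was used.

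Barcodes were kept by the limits given above. Each was put in the class whose marker share stood highest over its limit, with at least 3 marker UMIs: 1.5% for enterocyte, 3% (Lgr5+) or 7% (traced) for goblet, 5% or 15% for Paneth, 0.3% for tuft, 1% for enteroendocrine and for T cell, then 0.15% for dividing and 0.2% for stem. These limits were set after the data were seen. No doublet caller was run, and an alternative left out barcodes past more than 1 limit. Free RNA was read from droplets of 10 to 100 UMIs.

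UMIs were summed per library and class and tested with edgeR 4.0.16 (quasi-likelihood, filterByExpr, TMM, Benjamini-Hochberg adjusted p under 0.05) in R 4.3.3 across all genes. The test returns no SE, so each SE given is the absolute log2 change divided by the square root of the F value. For Tmprss15, Akp3 and Ggt1 in lineage-traced enterocytes, near 0 UMIs in Setdb1-KO, these SE values were narrower than the range over the alternatives. On simulated data of the Lgr5+ all-barcode comparison (13662 genes) the test recovered 100 of 100 genes changed 2-fold and 100 of 100 changed 4-fold. There 32 unchanged genes were also called. In the lineage-traced enterocyte comparison (5283 genes) it recovered 24% at 2-fold and 95% at 4-fold, with 3 unchanged genes called. The changed genes were drawn only from genes above a set mean level. In the Lgr5+ comparison Alpi, Enpep, Mep1a, Ggt1 and Akp3 lay below that level, so the recovery there does not cover them. Alternatives were DESeq2 1.42.0, its size factors in edgeR, library totals without TMM (added after the data were seen), no filter, a mitochondrial limit of 10%, at least 2000 or 1000 UMIs per barcode, a replicate block, enterocyte markers without fat-handling genes, and leaving out each library. Named genes were all 9 enzymes, Setdb1, and from each fixed list the genes called over all barcodes or in enterocytes and those of highest level. Further genes were the 3 most alike in pattern, of which the first is printed. The enzymes and lists were chosen with earlier results of these data known. A marker of the enterocyte class and a listed hydrolase are counted but not reported here by name.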

Additional observations from a re-analysis of the deposited data

Results flagged for a closer look

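The change between Setdb1-KO and WT differed between the 2 experiments by an interaction term in edgeR (adjusted p under 0.05), and the log2 values below are the lineage-traced change minus the Lgr5+ change. Over all barcodes the difference was -9.45 for Tmprss15, -8.54 for Ggt1, -6.85 for Akp3, -5.15 for Alpi, -3.76 for Sis, -3.39 for Enpep, -3.17 for Anpep, -2.71 for Mep1a and -0.99 for Dpp4. In traced Setdb1-KO, Tmprss15, Ggt1 and Akp3 gave at most 7 UMIs per library. On library totals without TMM that of Dpp4 was -0.47 and was not called (edgeR adjusted p = 0.15), nor was Dpp4 called after any 1 of the 4 Lgr5+ libraries or traced WT library 2 was left out (edgeR adjusted p = 0.051 to 0.093). Tmprss15, on 1 and 5 UMIs in the Lgr5+ groups, was not called without Lgr5+Setdb1KO library 2 (edgeR adjusted p = 0.082).

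In the enterocyte class the difference was -6.85 for Tmprss15, which gave at most 3 UMIs per Lgr5+ library, -5.62 for Ggt1, -4.72 for Akp3, -4.70 for Mep1a, -2.91 for Dpp4, -2.40 for Alpi and -1.30 for Enpep. In traced Setdb1-KO enterocytes, Ggt1 and Akp3 gave 3 UMIs each, Mep1a 4 and Tmprss15 2. Akp3 reached the filter on low counts in the WT groups alone, and Tmprss15 in traced WT alone. Mep1a reached it in Lgr5+Setdb1KO and traced WT alone. Over the alternatives the difference ranged from -10.72 to -4.30 for Akp3 and from -11.63 to -4.77 for Ggt1. The values of Ggt1, Akp3, Mep1a and Tmprss15 are descriptions. The call of Enpep held in 7 of 17 alternatives, with log2 values from -1.55 to 0.19, and that of Tmprss15 in 13 of 17. Setdb1 itself had a difference of 1.09 over all barcodes, on counts that do not measure the deleted exon. The experiments also differ in sort, depth and cell make-up, and the cause of these differences was not tested.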

How the results depend on the processing

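Of 117 counts of enzymes called under an alternative, 105 were within 1.5 times the count reported, and of 933 log2 changes 862 kept direction and side of the threshold, 36 lost the call, 18 gained it and 17 changed sign. Over all barcodes of the Lgr5+ experiment DESeq2 called 2 enzymes (Sis and Alpi) and leaving out 1 library gave 1 to 4. In Lgr5+ enterocytes leaving out 1 library gave 0 to 1, and in the Lgr5+ stem class 0 to 1, where no filter gave 2 and the replicate block 2. In the lineage-traced stem class it gave 0 to 4, with 0 without traced WT replicate 1. With enterocyte markers free of fat-handling genes, 4 enzymes were called in lineage-traced enterocytes and 3 in the interaction there, on 1 and 10 barcodes in traced Setdb1-KO. That setting turned Anpep to 0.35 and, in the interaction, Anpep to 0.33 and Enpep to 0.19, and Alpi in Lgr5+ enterocytes to 0.15. None of the values that changed sign was called. Without 1 library each, in Lgr5+ enterocytes Sis ranged from -0.14 to 0.66, Alpi from -0.35 to 0.21, Ggt1 from -0.21 to 0.096, Anpep from -0.59 to 0.12 and Enpep from -0.20 to 0.046. In the Lgr5+ stem class Alpi ranged from -0.14 to 0.96 and Enpep from -0.25 to 0.87, and in the lineage-traced stem class Sis from -2.62 to 0.024. In Lgr5+ enterocytes the 10% mitochondrial limit gave -0.12 for Dpp4 and library totals without TMM 0.0023 for Ggt1. The cause was not tested for any of these.

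Counts over all genes moved more. In the Lgr5+ experiment they were 183 over all barcodes (502 by DESeq2, 35 unfiltered, 51 blocked, 363 on library totals, 65 to 527 without 1 library), 41 in enterocytes (18 unfiltered, 87 blocked, 10 without fat-handling markers, 136 to 208 without 1 library) and 120 in the stem class (596 unfiltered, 716 blocked, 206 to 244 without 1 library). In the lineage-traced experiment they were 1066 over all barcodes (2579 blocked, 3807 on library totals, 586 to 2449 without 1 library), 1213 in enterocytes (394 by DESeq2, 685 unfiltered, 134 without fat-handling markers, 275 to 1712 without 1 library) and 75 in the stem class (48 by DESeq2, 21 to 206 without 1 library). The WT class comparison gave 4076 (1952 with no replicate block, 2423 without fat-handling markers), and the interaction 1045 over all barcodes (1568 unfiltered, 1729 blocked, 3292 on library totals, 529 to 2118 without 1 library) and 645 in enterocytes (408 by DESeq2, 1012 on library totals, 76 without fat-handling markers, 192 to 1297 without 1 library). On library totals the lineage-traced all-barcode calls were 3316 higher and 491 lower, against 188 higher and 878 lower with TMM, and those of the interaction 2775 and 517 against 208 and 837. The replicate numbers share no batch in the labels, and same-numbered libraries deviated together with correlations of -0.006 to 0.31 over 2 pairs, so the block is given here as a count only. With free RNA taken off, 254 of 324 levels stayed within 1 SD. That count includes levels of 0, which cannot move, and each SD is that of 2 libraries. Depth limits lineage-traced Setdb1-KO enterocytes most.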

Other observations

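Genes known from the ends of the small intestine, 4 distal and 4 proximal, were read in the enterocyte class and did not move as 2 blocks. Fabp6, the ileal bile acid binding protein, stood at 24.3 and 14.6 CPM in Lgr5+WT enterocytes, at 838 and 445 CPM in Lgr5+Setdb1KO, at 3248 and 3967 CPM in traced WT and at 25.8 and 72.6 CPM in traced Setdb1-KO. Slc51b, a subunit of the basolateral bile acid exporter, stood at 110 and 79.4, 101 and 107, 256 and 265, and 25.8 and 26.5 CPM in the same order. Slc51a, the other subunit, went the other way between the WT groups, at 282 and 243, 268 and 239, 172 and 155, and 43.0 and 58.6 CPM. The bile acid importer gene Slc10a2 gave 0 UMIs in Lgr5+WT, at most 6 per library in Lgr5+Setdb1KO, 65 and 29 in traced WT and at most 1 in traced Setdb1-KO. The proximal iron genes were also highest in traced WT, Slc40a1 at 21.5 and 24.3, 15.1 and 19.0, 270.2 and 169, and 0 and 14.0 CPM, and Cybrd1 at 25.1 and 16.6 CPM against at most 0.559 CPM in the other 6 libraries. Proximal Gata4 stood between 21.5 and 43.0 CPM in all 8 libraries, and Fgd6 gave at most 21 UMIs in each.

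Barcodes in no class with at least 0.3% of their UMIs on Fabp6 were looked at after the values were seen, 34 to 128 per library. Mep1a stood there at 124 and 56.8 CPM in Lgr5+WT and at 99.4 and 102 CPM in Lgr5+Setdb1KO, against 4.67 to 14.3 CPM in the enterocyte class of those libraries. In traced WT it stood at 137 and 89.8 CPM, and in traced Setdb1-KO at 17.7 and 53.5 CPM, on 1 and 11 UMIs. Enpep stood at 162 and 101, 135 and 117, 216 and 149.7, and 106 and 34.1 CPM in the 4 groups, and Alpi at 3.11 to 89.8 CPM.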
